A study of Mus musculus with 60 samples.

Results

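The 7 genes that encode the Jun and Fos proteins (Jun, Junb, Jund, Fos, Fosb, Fosl1 and Fosl2) were followed through 16 lists of chromatin peaks from mouse dorsal root ganglia. They are 7 of the 21887 protein-coding genes of the RefSeq table for GRCm38.p6. They were listed by symbol as a family, with earlier results of these data known. Peaks were taken within each gene and 50 kb on either side, which covered 748.323 kb and held 1626 of the 1658065 peaks in all lists. Ganglia L4 to L6, which send axons into the sciatic nerve, came from C57BL/6 mice aged 6 to 8 weeks, 24 h after surgery. The surgeries were an axotomy of the sciatic nerve (SNA) and its sham operation (Sham), and an axotomy of the dorsal columns in the spinal cord (DCA) and its laminectomy control (Lam). Every group held whole ganglia, with neurons, glia and other cells together, so fewer cells of a type and less signal per cell cannot be told apart. H3K9ac and H3K27ac, acetyl marks of active promoters and enhancers, and H3K27me3, a mark of repressed chromatin, were profiled by chromatin immunoprecipitation in 2 samples per surgery, each a pool of 10 mice, with 2 inputs. Open chromatin was profiled by ATAC-seq, in which a transposase cuts accessible DNA, in 3 samples per surgery of 1 mouse each. Each group of samples gave 1 pooled list, so no difference between surgeries below has a replicate error or a p-value, and intervals cover counting error only.

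Jun and Fos proteins are leucine zipper factors that pair to form AP-1, which binds the DNA letters TGAGTCA or TGACTCA and close variants. Jun proteins can pair with each other or with a Fos protein, whereas Fos proteins need a Jun partner. Fos, Fosb, Jun and Junb are immediate early genes, switched on within minutes by activity, growth factors or stress, while Jund is made steadily in most cells. Kinases of the JNK family phosphorylate Jun, and Jun is a classic marker of sensory neurons whose axon has been cut.

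Promoter sequences close to the start show some of the letters through which these genes are known to be read. The 250 bases before the start of 4 members are printed 5′ to 3′ on the coding strand, from the RefSeq table of GRCm38.p6. Capitals mark TTACCTCA and TGACATCA in Jun, variants of the AP-1 letters known to hold Jun and ATF proteins. In Fos, Fosb and Junb they mark TGACG, the core of the cyclic AMP response element that CREB binds, and in Fos also TATAAA, the TATA box. The stretches are chr4:95052223-95052472 on the minus strand for Jun, chr12:85473640-85473889 on the plus strand for Fos, chr7:19310046-19310295 on the minus strand for Fosb and chr8:84978749-84978998 on the minus strand for Junb.
Jun: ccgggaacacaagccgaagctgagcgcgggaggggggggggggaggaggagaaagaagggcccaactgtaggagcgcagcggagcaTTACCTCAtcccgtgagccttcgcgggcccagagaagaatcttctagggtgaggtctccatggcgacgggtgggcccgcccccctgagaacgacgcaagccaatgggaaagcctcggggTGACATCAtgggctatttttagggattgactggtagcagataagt
Fos: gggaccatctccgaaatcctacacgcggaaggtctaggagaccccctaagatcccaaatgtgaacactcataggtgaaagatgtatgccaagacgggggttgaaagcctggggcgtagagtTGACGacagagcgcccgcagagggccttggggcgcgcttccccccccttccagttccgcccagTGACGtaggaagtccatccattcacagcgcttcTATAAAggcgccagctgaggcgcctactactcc
Fosb: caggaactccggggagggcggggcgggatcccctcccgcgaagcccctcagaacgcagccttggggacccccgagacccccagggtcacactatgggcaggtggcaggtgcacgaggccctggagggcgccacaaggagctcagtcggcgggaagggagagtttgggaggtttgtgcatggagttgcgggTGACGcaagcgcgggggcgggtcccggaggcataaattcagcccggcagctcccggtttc
Junb: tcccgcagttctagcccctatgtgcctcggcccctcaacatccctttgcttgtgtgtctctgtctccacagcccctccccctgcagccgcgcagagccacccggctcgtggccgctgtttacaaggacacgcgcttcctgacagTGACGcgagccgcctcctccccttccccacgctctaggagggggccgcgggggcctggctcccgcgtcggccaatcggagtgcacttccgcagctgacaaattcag

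The search covered both strands of 300 bases, 250 before the start and the 50 that begin at it, for the 6 members in the table. Fosl1 was not in it. TGACATCA lay 45 bases before the start of Jun and in 3.62% of all 32851 promoters. TTACCTCA began 164 bases before the start of Jun and was found in 0.889% of promoters. TGACG lay in Fos (129 and 66 bases before the start), Fosb (60) and Junb (106), against 20.8% of promoters, and TATAAA lay in Fos (33) and, from its first base, in Junb, against 13.6%. Within these 300 bases none of the 6 held TGACTCA or TGAGTCA (5.2% of promoters), the full element TGACGTCA (1.79%), TTACGTCA (0.499%), the CArG box read by serum response factor (1.63%) or TTCCNNGAA, a STAT site (4.81%). Bases further upstream were not searched, so a CArG box or STAT site there, at Fos as at the others, would have been missed. TTACCTCA, TGACG and TATAAA were added after the sequences had been seen.

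Jun, Junb, Jund, Fos, Fosb and Fosl2 had peaks of both acetyl marks and of ATAC within 1 kb of the start in every surgery. At Jund no ATAC peak covered the start itself in any list. A promoter was the stretch within 1 kb of the start, and for Fosl1, whose start and strand the tables used here do not give, of either end. Counted in this way, all 7 genes had a promoter peak in all 4 H3K9ac lists, all 4 H3K27ac lists and all 4 ATAC lists. For Fosl1 the acetyl peaks of all 4 lists lay at its upper end, and with the lower end alone the 28 gene and list pairs became 26 in each acetyl mark. Over all 21887 genes, that held for 43.2% of genes in H3K9ac, 32.7% in H3K27ac and 62.1% in ATAC. None of the 7 had an H3K27me3 promoter peak in any list, against 37.7% of genes with one in any list and 3.4% with one in all 4. List by list, 22.2% of genes had one in Sham and 16.9% in SNA, and 25.1% in Lam and 8.46% in DCA. With peaks of −log10 q of at least 5 alone, the H3K9ac promoter count went from 28 pairs to 17.

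Peak height is given as the deposited fold enrichment over local background at the strongest promoter peak, a value of each list on its own. In ATAC, Jun reached 5.46-fold in Sham and 5.52 in SNA, and 5.87 in Lam and 4.41 in DCA, from 165, 200, 188 and 156 reads at the summit. Jund, the steadily expressed member, gave 3.68, 4.29, 4.99 and 4.65. Its summits lay 1083 to 1116 bp inside the gene, past the 1 kb limit, so part of each peak lay in the promoter and its summit did not. Jun stood above the other 6 members in Sham, SNA and Lam, and below Jund in DCA. In every list its counting interval overlapped that of another member. In Sham the intervals were 4.66 to 6.35 for Jun and 3.90 to 5.53 for Fosl2. For Jun and Jund they were 4.79 to 6.34 and 3.72 to 4.93 in SNA, and 5.06 to 6.76 and 4.34 to 5.71 in Lam. In DCA they were 3.75 to 5.16 for Jun and 4.07 to 5.28 for Jund. Junb, a partner of Fos with weaker activity than Jun, had the lowest ATAC promoter peak in Sham, SNA and DCA, at 2.69, 2.68 and 2.71, and reached 3.15 in Lam. Fos gave 3.41, 3.46, 2.68 and 3.08, and Fosb, a close relative of Fos, gave 3.67, 3.46, 3.63 and 3.13. Fosl2, a Fos protein without a strong activation domain, gave 4.66, 3.37, 3.89 and 3.49.

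In H3K9ac the tallest promoter peak of the family was that of Fos in Sham. Fos gave 6.97-fold in Sham and 6.63 in SNA, and 5.01 in Lam and 4.60 in DCA. Jun gave 5.59, 6.38, 3.03 and 5.61, so that its Lam value was the lowest, with an interval of 2.26 to 3.98 that met none of the other 3. Fosl2 gave 4.0, 2.51, 2.91 and 6.88, and its DCA interval (5.08 to 9.13) stood clear of SNA and Lam. The named peak at Jun lay inside the gene in Sham, SNA and Lam and 543 bp before the start in DCA, so these values do not always come from the same peak.

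**Figure D1:**
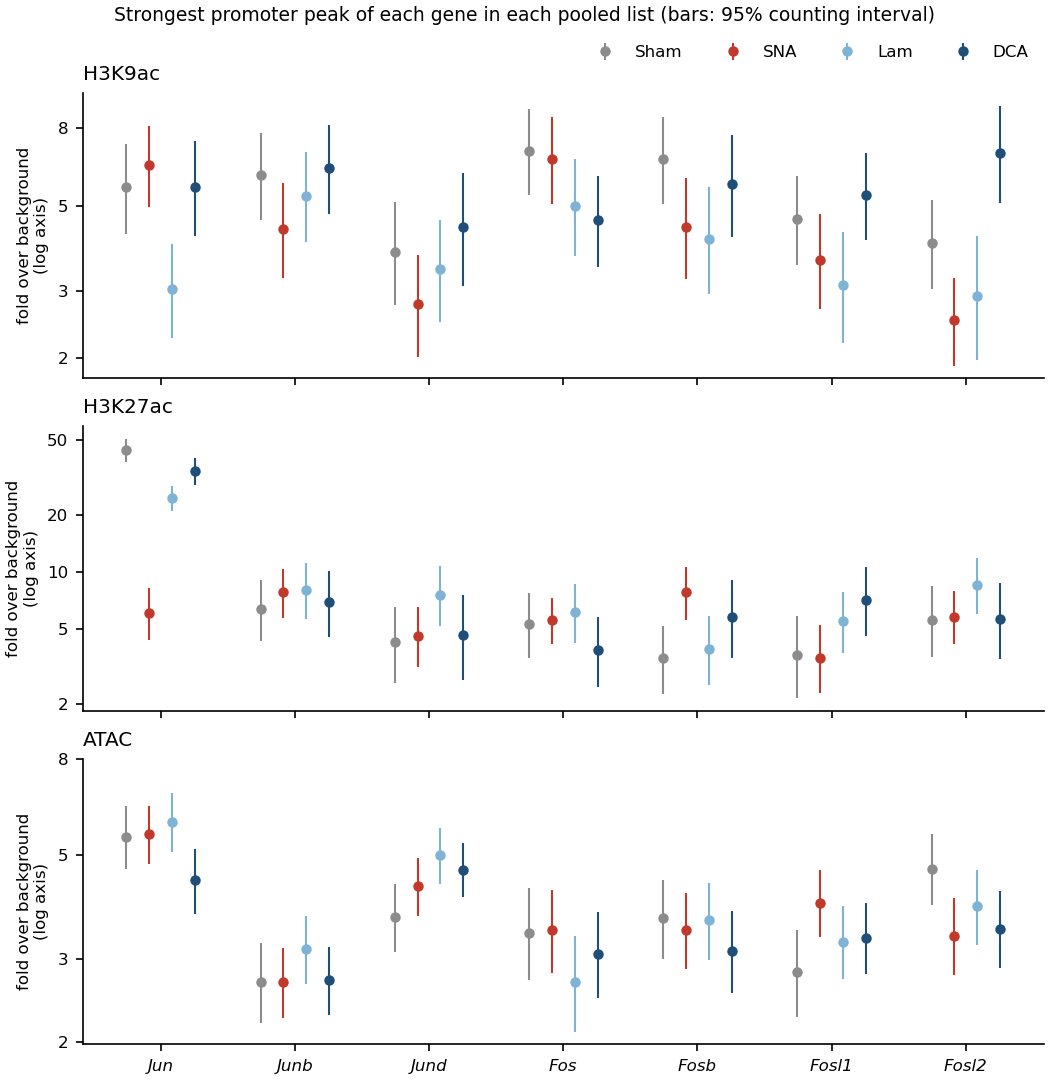
Fold enrichment of the strongest promoter peak of each gene (columns) in each pooled list (colours), for H3K9ac, H3K27ac and ATAC, on log axes, with bars for the 95% counting interval of the reads at the summit. In H3K27ac the Sham, Lam and DCA values of Jun (44.3, 24.6 and 34.3) stand above every other value, while its SNA value of 6.12 lies among those of the other members. The values of Fosl1 come from peaks at its upper end, which is not known here to be its start.

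The peak just before Jun was among the strongest H3K27ac peaks of the genome in 3 surgeries and not in the fourth. Its summit lay 500 bp before the start in Sham, 519 in Lam and 501 in DCA, at 44.3-fold, 24.6-fold and 34.3-fold. These came from 196 reads (95% interval 169.5 to 225.4), 163 (138.9 to 190.0) and 142 (119.6 to 167.4), and the peak ranked 3 of 43803, 7 of 67311 and 3 of 46489. In the SNA list the peak over the same stretch reached 4.04-fold from 41 reads (29.4 to 55.6), with its summit 797 bp before the start and a rank of 10694 of 75824. The strongest Jun promoter peak of that list was another one, 239 bp inside the gene, at 6.12-fold from 39 reads. ATAC peaks of the same surgery overlapped the stretch in all 4 surgeries, 2 of them in Sham, SNA and DCA and 1 in Lam. H3K9ac peaks overlapped it in Sham (1), SNA (2) and DCA (1) and not in Lam.

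The SNA list differs from the other H3K27ac lists over the whole genome in the same way. Its highest fold anywhere was 16.2, against 47.7 in Sham, 34.8 in Lam and 40.0 in DCA, and it held 263 peaks of 10-fold or more against 2422, 1344 and 1364. Of those in the Sham list, 23.7% overlapped a peak of the SNA list, 98.0% one of Lam and 97.9% one of DCA, 25.5% overlapped an ATAC peak, and 12.2% lay within 1 kb of a gene start. Of the 263 in SNA, 94.7% overlapped an ATAC peak and 72.6% lay within 1 kb of a start. How much of the Jun difference follows the list was not tested. The limit of 10-fold was chosen after these values had been seen.

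**Figure D2:**
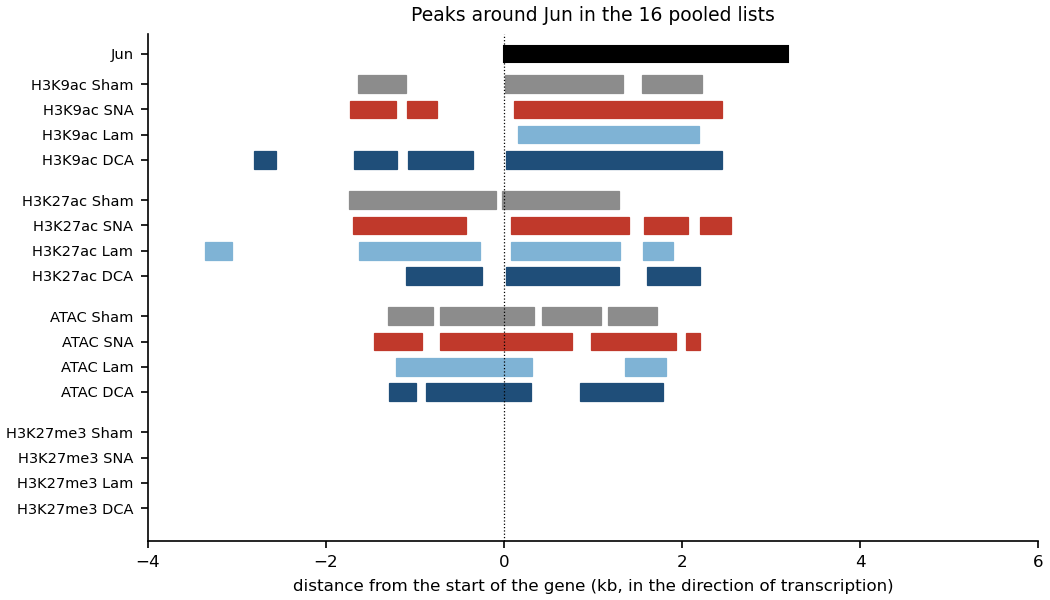
Peaks around Jun by distance from its start in kb, in the direction of transcription (black bar, gene; coloured bars, peaks; 1 row per pooled list). Both acetyl marks flank the start, an ATAC peak covers it in each of the 4 surgeries, and no H3K27me3 peak lies within the range drawn.

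Besides Jun, 7 sites of the family had an H3K27ac peak of 10-fold or more in some list, and 3 of them had none in SNA. A peak 19.2 kb after the Fosb start (chr7:19290571-19291230 in Sham) reached 16.4-fold in Sham, 8.89 in Lam and 13.2 in DCA, from 63, 51 and 54 reads. A second, 6.80 kb from the Fosb start (chr7:19303031-19303444), reached 11.4, 7.59 and 7.24. One more, 53.5 kb after the Fos start (chr12:85527182-85528059) and at the very edge of its window, reached 12.3, 10.3 and 8.68. Unlike the peak at Jun, none of the 3 overlapped an ATAC peak of Sham, Lam or DCA. H3K9ac peaks of the same surgery overlapped the first in Sham and DCA and the second in DCA, and none overlapped the peak after Fos. In the SNA list a peak of 10-fold or more occurred at 1 site, near Fosl1. That peak (chr19:5406816-5407789) reached 12.0 in SNA, where it ranked 11 in the list, and 11.6 in DCA, 6.84 in Lam and 4.55 in Sham. The remaining 3 were highest in Lam and had peaks in all 4 lists. They lay 43.0 kb above the lower end of Fosl1, at an end of Cfl1 (15.9-fold), 1.55 kb before Fosl2 (12.3) and 23.0 kb before Fosb (10.8).

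At Fos, the sites that stood out in ATAC lay away from the promoter. Fos, the founding member of the Fos family, has no other protein-coding gene within 50 kb. A site 18.5 kb before its start (chr12:85454844-85456013) gave an ATAC fold of 5.42 in Sham and 6.54 in SNA, and 6.46 in Lam and 5.47 in DCA, from 122, 180, 166 and 145 reads. A second site, 12.1 kb after the start (chr12:85485563-85486471), gave 4.76, 6.18, 6.95 and 5.58, from 97, 147, 162 and 141 reads. In each of the 4 lists both sites were higher than the Fos promoter, whose folds were 2.68 to 3.46, and at the upstream site the counting intervals (lowest bound 4.51) stood clear of those of the promoter. Among the 60 distal regions that were open in all 4 lists at the 7 loci, 4 were higher than the member's strongest promoter peak in every list: these 2, 1 at Junb and 1 at Fosl1. For Fosl1 the peak compared was the one at its upper end, near Ccdc85b, which is not known here to be its start.

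Both acetyl marks lay at the upstream site of Fos in all 4 surgeries. H3K9ac there reached 4.77-fold in Sham and 6.28 in SNA, and 4.46 in Lam and 6.29 in DCA, and H3K27ac reached 3.96, 6.11, 5.15 and 5.09. At the downstream site H3K9ac reached 3.47, 3.37, 4.92 and 6.38. H3K27ac there reached 5.43 in Sham, 9.61 in SNA and 6.67 in Lam, and the DCA list had no peak over the open region. It did have a peak beside it, in a merged H3K27ac region of all 4 lists (chr12:85486226-85488360) that begins inside the open region. The SNA peak came from 41 reads (fold interval 6.98 to 12.9), and the Sham peak from 29 (3.70 to 7.72), so these 2 intervals overlapped.

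**Figure D3:**
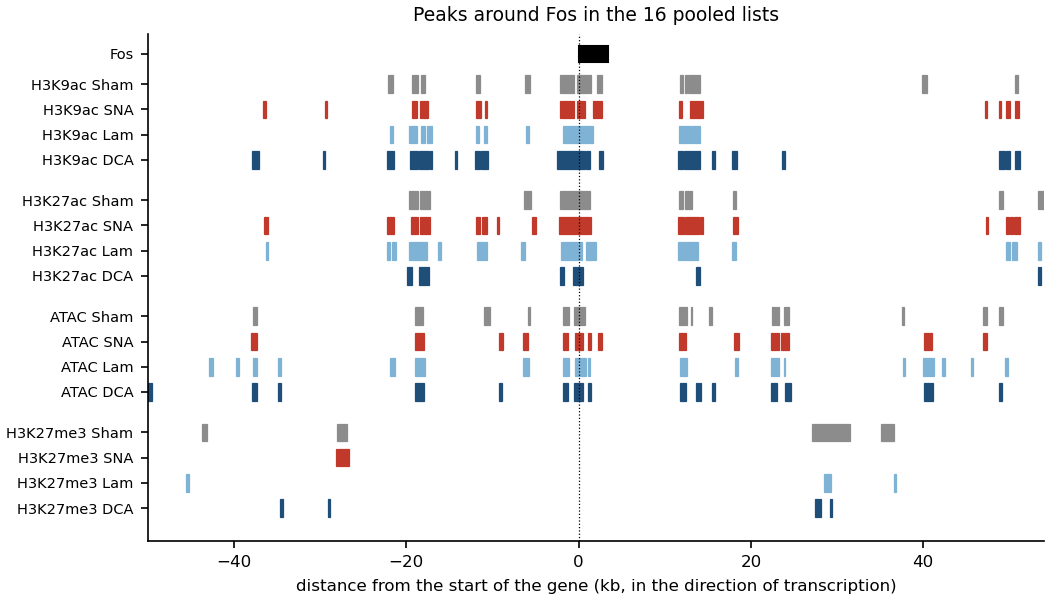
Peaks around Fos by distance from its start in kb, in the direction of transcription (black bar, gene; coloured bars, peaks; 1 row per pooled list). Near 18.5 kb before and 12.1 kb after the start, ATAC and H3K9ac peaks stack in all 4 surgeries. The DCA row of H3K27ac has no peak over the open downstream site but has one beside it.

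The site at Junb lay 12.0 kb before its start (chr8:84989964-84991450). Its ATAC fold was 3.11 in Sham and 3.81 in SNA, and 4.39 in Lam and 2.93 in DCA. H3K9ac peaks lay over it in Sham (3.43), SNA (6.42) and DCA (4.08) and not in Lam, and H3K27ac peaks in SNA (5.15), Lam (2.95) and DCA (2.47) and not in Sham. The site at Fosl1 lay 22.8 kb below its lower end (chr19:5424042-5425687), within 1 kb of the ends of Drap1 and AI837181, with ATAC folds of 3.94 to 4.44. Jun had 1 distal region open in all 4 lists, 30.3 kb before its start, at 1.65 to 2.52-fold, and none of its regions of either acetyl mark in all 4 lists met it. Fosl2 had 4 such open regions, at 1.76 to 2.56-fold, and again none carried either mark in all lists. Of the 35 distal open regions of the 7 loci that lay over 1 kb from every gene start, 10 had a peak of both marks over them in each of the 4 surgeries (28.6%, Wilson 95% interval 16.3 to 45.1), against 7.80% of 23676 such regions in the genome. Fosb held 5 of the 10, Junb and Fos 2 each and Jund 1, and Jun, Fosl1 and Fosl2 held none.

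Distal peaks, meaning those of a window outside the promoter, numbered 1468. The loci differ in how crowded they are: Jun, Fos and Fosl2 have no other protein-coding gene in the window, whereas Jund has 5, Fosb 7, Junb 8 and Fosl1 11. Over the 4 lists of a mark Jun had the fewest distal peaks of either acetyl mark and of ATAC, with 17 of H3K9ac, 10 of H3K27ac and 29 of ATAC. Fosb had the most ATAC peaks, 116, of which 78 lay over 1 kb from the end of another gene, and Jund the most H3K9ac (89) and H3K27ac (86). In each of the 12 lists of H3K9ac, H3K27ac and ATAC the median member had more distal peaks than the median gene, for example 17 against 4 for H3K9ac in SNA and 25 against 14 for ATAC in SNA.

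In H3K27ac, Jun and Fos were the members whose distal peak numbers differed most between surgeries as a ratio. Jun had 0 distal peaks in Sham and 4 in SNA, and 5 in Lam and 1 in DCA. Fos had 8, 18, 14 and 5. A member was counted as different when the ratio of its numbers, with 1 added to each, was at least 2 or at most 0.5. By that rule Jun and Fos had more peaks in SNA than in Sham (21.2% of all genes did) and fewer in DCA than in Lam (14.1% of genes), and Jun had more in Lam than in Sham (15.4%). None of the 7 passed the opposite limit, with fewer peaks in SNA (7.28% of genes did), more in DCA (3.18%) or fewer in Lam (4.54%), and the other 5 members passed neither limit in H3K27ac. SNA exceeded Sham at all 7 members, beside 51.8% of all genes. DCA fell short of Lam at 6, with Fosl2 at 5 in each, beside 49.9% of genes. With the lists cut to equal length, the contrast at Jun between SNA and Sham stayed at 4 against 0, while Fos had 9 against 8 and, in DCA and Lam, 5 against 8, and Jun 1 against 1 there. With peaks of −log10 q of at least 5 alone the direction at Jun between DCA and Lam turned.

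In H3K9ac the members had more distal peaks in DCA than in Lam at all 7 loci, as did 60.6% of all genes. The median gene had 3 such peaks in Lam, against 10 for the median member, so ties come more easily over all genes. Jun had 7 against 2, Jund 30 against 13 and Fosl2 10 against 4, and these 3 passed the limit, as did 28.1% of all genes, while none had fewer (1.08% of genes). In SNA against Sham, Fosl2 alone passed, with 12 against 5 (13.9% of genes), none passed the lower limit (1.85%), and Jun (3 against 5) and Fosb (20 against 21) went the other way. Lam had fewer than Sham at all 7 members, beside 29.2% of genes. Jun, with 2 against 5, passed the lower limit, as did 6.41% of genes, and none the upper one (7.6%). That call of Jun was lost with −log10 q of at least 5, a window of 100 kb and a promoter of 2.5 kb. At equal list length Jun stayed past the limit in DCA against Lam (5 against 2), and Jund (20 against 13) and Fosl2 (4 against 4) did not. Fosl2 did not pass in SNA either (8 against 5).

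Numbers of ATAC peaks differed less between surgeries at Jun and Fos. Jun had 8, 6, 7 and 8 distal peaks in Sham, SNA, Lam and DCA, Fos 15, 13, 18 and 15, and Fosb 27, 31, 28 and 30. No member passed either limit in any comparison, where 6.15% of genes had more and 3.7% fewer in SNA, 5.84% more and 2.6% fewer in DCA, and 4.02% more and 5.95% fewer in Lam against Sham.

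**Figure D4:**
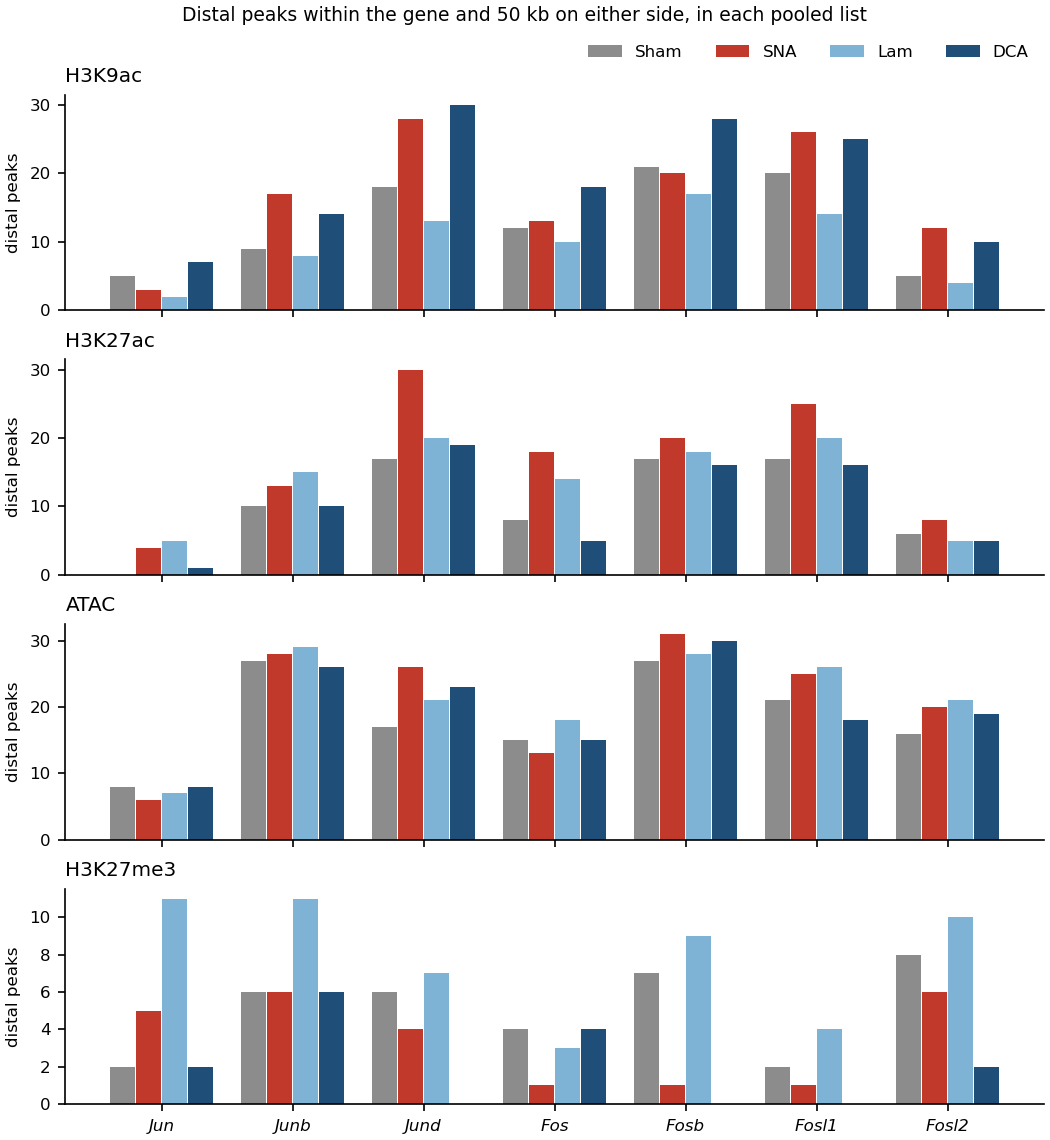
Number of distal peaks at each member (columns) in each pooled list (colours) for the 4 assays, with axes that start at 0. H3K27ac at Fos runs 8, 18, 14 and 5 in Sham, SNA, Lam and DCA, while ATAC at Fos runs 15, 13, 18 and 15.

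Summed over the 7 loci, the shares of H3K9ac, H3K27ac and ATAC peaks did not stand clear of those of the whole lists. SNA held 56.9% of the H3K9ac distal peaks of SNA and Sham together (119 and 90, interval 50.2 to 63.5), against 59.7% over the whole lists, and at equal list length it held 46.4%. DCA held 66.0% of those of DCA and Lam (132 and 68, 59.2 to 72.2), against 63.9%. In H3K27ac, SNA held 61.1% (118 and 75, 54.1 to 67.7) against 63.4%, and DCA 42.6% (72 and 97, 35.4 to 50.1) against 40.9%. In ATAC the shares were 53.2% and 48.1%, against 53.2% and 51.0%. For the controls without axotomy, Lam against Sham, the shares were 43.0% in H3K9ac, 56.4% in H3K27ac and 53.4% in ATAC, against 50.2%, 60.6% and 50.7%. The share of the whole lists lay inside the interval of the 7 loci in each of these 9 comparisons. For H3K27me3 it lay outside in 2 of 3: DCA held 20.3% (14 and 55, 12.5 to 31.2) against 36.9%, and SNA 40.7% (24 and 35, 29.1 to 53.4) against 53.5%. Over the distal peaks of all genes, counted as at the loci, the H3K27me3 shares were 31.9% for DCA, just past the interval, and 51.6% for SNA, inside it.

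**Figure D5:**
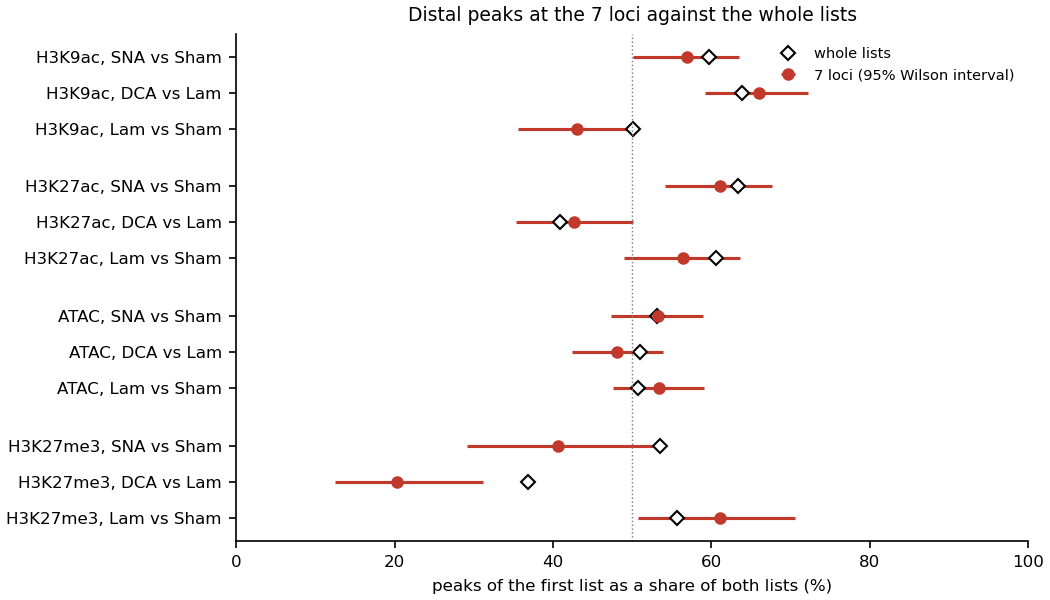
Distal peaks of the first list as a share of both lists at the 7 loci (red, with 95% Wilson interval) and over the whole lists (diamonds), for 4 assays and 3 comparisons. For H3K27me3 in DCA against Lam, 20.3% at the loci stands apart from 36.9% over the lists, and in SNA against Sham the whole-list value of 53.5% lies just past the upper bound of 53.4%.

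Peaks found in 1 surgery of a pair and not in the other were mostly of middling strength, apart from the H3K27ac peaks described above. The share of such peaks over the whole lists was not computed. The numbers here and in the next paragraph therefore cannot be called particular to the family. In SNA, 59 of 118 distal H3K27ac peaks had no overlapping peak in Sham. The strongest of them lay near Fosl1 at the ends of AI837181 and Drap1 (7.84-fold) and near Mus81 (6.11-fold), and within Jun, 1.85 kb after its start (6.03-fold), and all 3 had peaks in Lam and DCA too. In Lam, 46 of 97 had none in DCA, the strongest at the downstream Fos site (6.67-fold). In DCA, 15 of 72 had none in Lam, led by a peak 18.3 kb before Fosb (5.01-fold) that Sham shared and by 2 at Jund, 47.6 kb before and 3.82 kb after its start (5.15 and 4.55-fold), that SNA shared.

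In H3K9ac, 77 of 132 DCA peaks had no overlap in Lam, led by 1 at Jund 39.5 kb before its start (4.86-fold). Next came 2 in the window of Fosl1, near Mus81 (4.60-fold) and 14.7 kb below the lower end of Fosl1 (4.47-fold). The SNA list had all 3 as well. In SNA, 55 of 119 had none in Sham. They were led by 2 in the window of Fosl1, at the ends of Cfl1 and Mus81 (5.36-fold) and near Ccdc85b (3.89-fold). The third was at Junb, 19.6 kb before its start (4.44-fold), and all were shared with DCA. In Sham, 25 of 90 had none in SNA, among them 1 at Fos 21.8 kb before its start (4.14-fold). In ATAC, 59 of 149 SNA peaks had none in Sham, with a highest fold among the 3 strongest of 2.32, at Fosb. The strongest of the 34 of 131 in Sham with none in SNA lay at the ends of Ppp1r13l and Cd3eap, 49.4 kb before Fosb (2.86-fold). In DCA, 49 of 139 ATAC peaks had none in Lam, the 3 strongest at Fosb and Fosl2 with 2.22 to 2.53-fold.

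Of the regions with a peak at the loci, under 1 in 3 were common to the 4 surgeries. Merged across lists, the loci held 163 H3K9ac regions, of which 44 were in all 4 lists (27%, interval 20.8 to 34.3), against 18.8% over the genome. For H3K27ac it was 42 of 138 (30.4%, 23.4 to 38.6) against 13.6%, and for ATAC 69 of 233 (29.6%, 24.1 to 35.8) against 10.0%. For H3K27me3 it was 2 of 84 (2.38%, 0.655 to 8.27) against 3.82%. The 44 regions of H3K9ac became 6 with peaks of −log10 q of at least 5 and 18 where each list had to cover 0.5 of the region. Fosb and Junb each had 18 ATAC regions in all lists, Fosl1 12, Fos and Jund 7, Fosl2 5 and Jun 2. Regions seen in a single list were led by DCA for H3K9ac (43, or 26.4% of regions, against 28.5% over the genome). For H3K27ac they were led by SNA (23, or 16.7%, against 23.2%). These were the longest lists of their marks.

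Acetylation of open distal sites differed between the members. Away from gene ends, 26 of 93 ATAC peaks of the loci overlapped an H3K9ac peak in Sham (28.0%, against 8.20% over the genome), 31 of 102 in SNA (30.4%, 11.8%), 21 of 108 in Lam (19.4%, 6.96%) and 42 of 96 in DCA (43.75%, 14.0%). For H3K27ac it was 22 in Sham (23.7%, against 5.99%), 33 in SNA (32.4%, 9.69%), 30 in Lam (27.8%, 9.91%) and 18 in DCA (18.75%, 5.93%). Fos, Fosb and Jund held most of the overlaps: in Lam, H3K27ac lay over 8 of 18 open sites of Fos, 9 of 18 of Fosb and 7 of 16 of Jund. At Fosl2 H3K27ac lay over 1 of 16 in Sham and 2 of 20 in SNA, and over 1 of 21 in Lam and 0 of 19 in DCA. In the same order it lay over 1 of 8, 1 of 5, 2 of 7 and 0 of 8 at Jun. At Junb the numbers were 3 of 14, 3 of 12, 1 of 14 and 1 of 13, and at Fosl1 0 of 9, 5 of 14, 2 of 14 and 1 of 6. Peaks of a locus are not independent of each other, so the difference from the genome was not tested.

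H3K27me3 peaks at the family were about as many and as weak as over the genome. The median member had 6 distal peaks in Sham and 4 in SNA, and 9 in Lam and 2 in DCA, against 6, 6, 8 and 3 for the median gene, and the median fold in Sham was 1.12 at the loci and 1.11 over the list. The Sham list had 35 peaks in the windows, the SNA list 24, the Lam list 55 and the DCA list 14, and none of these had a q of 0.05 or below. The highest fold was 2.13, in Lam. The list of DCA is the shortest and held 43 such peaks of 90011 over the genome, against 1613 of 122953 in Sham. Jun had 2 distal peaks in Sham and 5 in SNA, and 11 in Lam and 2 in DCA. Fosb had 7 in Sham and 1 in SNA, and 9 in Lam and 0 in DCA. Past the limits, Jun had more in SNA than in Sham (10.3% of genes), Fos and Fosb fewer (13.4%), Jun, Jund, Fosb, Fosl1 and Fosl2 fewer in DCA than in Lam (50.9%), and Jun more in Lam than in Sham (20.5%). The calls of Jun and Fos in SNA held under 4 of 8 alternatives each, and turned with a window of 10 kb (Jun) and of 100 kb (Fos). No member passed the limit for more in DCA than in Lam (2.21% of genes) or for fewer in Lam than in Sham (4.89%). The nearest H3K27me3 peak to the Jun start lay at 5.89 kb in Sham, 11.2 kb in SNA, 7.43 kb in Lam and 38.3 kb in DCA.

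At Fosl1, which like Fosl2 encodes a Fos protein without a strong activation domain, the 2 gene ends differed. An ATAC peak covered the lower end (position 5447698 of chromosome 19) in all 4 lists, while H3K9ac peaks lay within 1 kb of it in Sham and DCA and H3K27ac peaks in Sham and Lam. The upper end, near Ccdc85b, had a peak of each mark and of ATAC in every list, so the full promoter count of Fosl1 rests on that end.

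Profiles of distal peak number over the 16 lists were compared between genes. Pearson's r of log2 of the number plus 1 was 0.14 to 0.57 between Jun and the other members, against 0.94 to 0.96 among Jund, Fosb and Fosl1. The genes most like Jun were Nfe2l3 (0.92), Alox12b (0.90) and Cyp8b1 (0.89), and those most like Fos were 1700003F12Rik (0.96), Ago2 (0.95) and Wtap (0.95). For Junb they were Hmox1, Flcn and Mapt (0.95 to 0.96), for Jund Manbal, Sparc and Plpbp (0.99), for Fosb Baiap2l2, Kctd2 and Trim80 (0.99 to 1.00), for Fosl1 Tubb4b, Ttc25 and Tgm1 (0.99 to 1.00) and for Fosl2 Ppp6r1, Tgm4 and Rbm12 (0.97 to 0.98). The points share their lists and so the list lengths, and the median r over all genes was 0.10 to 0.55, so these values describe the lists and carry no p.

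Partners of the family passed the limits at a few genes. Among 10 AP-1 partners, which are ATF, BATF, JDP and MAF proteins that pair with Jun or Fos, 3 had more distal H3K27ac peaks in SNA than in Sham, beside 21.2% of all genes. These were Atf3, an injury-induced factor (9 against 4), Atf7 (20 against 7) and Maf (26 against 6). Maf also passed in ATAC (5 against 2), beside 6.15% of genes. In the surgeries without axotomy, Lam against Sham, Atf7 (20 against 7) and Maf (15 against 6) had more H3K27ac peaks as well, beside 15.4% of genes, and Maf more ATAC peaks (5 against 2), beside 4.02%. In DCA against Lam, Atf2, Atf4, Atf7 and Batf had more in H3K9ac, beside 28.1% of genes, for example 15 against 6 at Atf4, the factor of the integrated stress response. Batf had more in ATAC (25 against 8), beside 5.84%. In H3K27me3, 8 of the 10 had fewer in DCA than in Lam, beside 50.9% of genes, and 2 fewer in SNA than in Sham, beside 13.4%. The list's median log2 ratio was 0.42 in H3K27ac for SNA, beside 0.18 over all genes, and 0.84 in H3K9ac for DCA, beside 0.43.

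Of 16 genes of the JNK route and the serum response, few passed in H3K9ac, H3K27ac and ATAC. In SNA against Sham, Map2k4, a kinase that activates JNK, was the 1 gene with more in H3K27ac (5 against 2, beside 21.2% of all genes) and in ATAC (22 against 9, beside 6.15%). Mapk8, which encodes JNK itself, was the 1 gene with more in H3K9ac (2 against 0, beside 13.9%), and Mapk8ip2, a JNK scaffold, had fewer in H3K27ac (2 against 8, beside 7.28%). In DCA against Lam, 4 of 16 had more in H3K9ac, beside 28.1% of genes. These were Map3k12, the dual leucine zipper kinase that signals axon injury (16 against 7), Mapk8 (1 against 0), and Elk4 (10 against 1) and Srf (6 against 2), both genes of the serum response. Mapk10 had fewer (0 against 2, beside 1.08%), and Elk4 had fewer in H3K27ac (0 against 5, beside 14.1%). In Lam against Sham, Map3k12 (12 against 4) and Elk4 (5 against 2) had more in H3K27ac, beside 15.4%, while in H3K9ac Mapk10 (2 against 0) and Elk1 (1 against 0) had more, beside 7.6%, and Elk4 fewer (1 against 3), beside 6.41%. In H3K27me3, 10 of the 16 had fewer in DCA than in Lam, beside 50.9%. The list's median log2 ratio was 0.42 in H3K27ac and 0.47 in ATAC for SNA, beside 0.18 and 0.17 over all genes.

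Marker genes bear on which cells these peaks come from. Promoters of sensory neuron markers had an ATAC peak at 9 or 10 of 10 genes in each list but an H3K9ac or H3K27ac peak at 1 to 5, with Isl1, for example, at 0 in all 8 acetylation lists. Markers of satellite glia and Schwann cells had one at 6 to 10 of 10 genes, and those of macrophages at 0 to 2 of 10. Markers of endothelium and fibroblasts had one at 3 to 5 of 6 genes in H3K9ac and at 0 to 3 of 6 in H3K27ac. Distal H3K27ac peaks of the glial markers numbered 120 in Sham and 181 in SNA, and 174 in Lam and 133 in DCA, and those of the macrophage markers 57, 67, 62 and 51. The part of cell composition in the contrasts at Jun and Fos was not tested. The background level at a position was recovered from the peaks in the scaled pile-up units of each list. It was 1.68 to 5.2 in the H3K9ac lists, whose scales ran from 0.315 in Sham to 0.918 in DCA. Those values are therefore not read numbers and do not compare depth between lists. The level was 2.11 to 3.08 in H3K27ac (scale 0.759 to 1) and 16.2 to 18.4 in ATAC (scale 1), so the ATAC values rest on the deepest background.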

How the data were processed

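The 60 samples are 16 groups with a list and their inputs. Per the series' text, the authors pooled the replicates of each group before making its peak list. H3K9ac, H3K27ac and ATAC have narrow peaks and H3K27me3 broad ones. The build is mm10, per the submitters' processing notes. The aligner and peak caller are not given in the sources used here. Per the file headers and layout, the deposited fold is the linear ratio of a peak to its local background, the deposited −log10 p and −log10 q are those of the authors' caller, and the deposited integer score was not used. Fold and −log10 p describe, rank and filter peaks within a list.

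Repeated ATAC lines of an interval were collapsed to the strongest. Gene positions came from the RefSeq table of GRCm38.p6; starts came from its promoter table, which has 17492 of the 21887 genes, and for the other 4395, Fosl1 among them, both ends were used. Peaks overlap at 1 bp or more. Reads at a summit were recovered from fold, taken as (pile-up + 1)/(background + 1), and the Poisson tail p, with 1 scale per list (0.315 to 1). A match was found for 100% of 3000 peaks tried per list. Intervals on reads are exact Poisson and on shares Wilson, both at 95%.

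The 7 members, the gene lists and the tests were chosen with earlier results of these data known. All members are named, with the strongest promoter peak per narrow list, the 3 strongest one-sided distal peaks per assay and comparison, the 3 most alike genes of those with at least 20 distal peaks, and listed partner genes that passed the limits. Sites with a peak in all lists and the strong H3K27ac peaks were chosen after the values had been seen. Alternatives used −log10 q of 5 or 1.3, equal list lengths, windows of 10 or 100 kb, promoters of 500 bp or 2.5 kb, and peaks at ends of other genes left out. The counting and the read recovery were tested on simulated data. AP-1 letters inside ATAC peaks were not searched here. Python 3.11.15 with pandas 2.3.3, numpy 2.4.6, scipy 1.17.1 and matplotlib 3.10.9 was used. The values of 1 marker gene are not reported here by name.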

Additional observations from a re-analysis of the deposited data

Results flagged for a closer look

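At 2 members H3K27ac distal peaks differed past 2-fold in opposite directions in the 2 axotomies. Jun went from 0 in Sham to 4 in SNA (log2 ratio with 1 added, 2.32) and from 5 in Lam to 1 in DCA (-1.58), a gap of 3.91. Fos went from 8 to 18 (1.08) and from 14 to 5 (-1.32), a gap of 2.4. In H3K27me3, Jun went from 2 to 5 (1) and from 11 to 2 (-2), a gap of 3. With 1 pooled list per surgery the difference between the axotomies was not tested at any of these. The share of all genes with such opposite calls was not computed. At equal list sizes neither gene kept the opposite calls in H3K27ac. Fos had 9 against 8 in SNA and Sham and 5 against 8 in DCA and Lam, and Jun had 1 against 1 in DCA and Lam. The H3K27ac call of Jun in DCA also turned with −log10 q of at least 5. Over all genes the mean log2 ratio had the same pair of signs in H3K27ac, 0.33 for SNA and -0.28 for DCA, and was -0.03 and -1.11 in H3K27me3.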

How the results depend on the processing

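No paired analysis was possible because each list pools the replicates of its group, and for the same reason no replicate could be left out. Of 158 values of the shares and counts under the alternatives, 124 stayed inside the main interval or within 1.5 times the main count, 33 moved and 1 reversed, meaning that it crossed 50% although its main interval excluded 50%. Another 9 shares of the 7 loci crossed 50% from main intervals that held it. Of 617 values for single members, 49 moved, and 78 crossed 50%, all from main intervals that held it. Of the 19 calls of single members, 17 were lost under at least 1 alternative. Of these 3 also turned, Jun in H3K27ac (DCA, −log10 q of 5) and, in H3K27me3 (SNA), Jun (10 kb window) and Fos (100 kb window). The H3K9ac share of SNA against Sham reversed to 46.4% at equal list sizes and moved to 76.2% and 63.9% with −log10 q of at least 5 and 1.3. DCA against Lam in H3K9ac moved to 85.1% (−log10 q of 5), 55.6% (equal sizes) and 58.3% (10 kb window), and Lam against Sham to 73.7% and 52.1% (−log10 q of 5 and 1.3). In H3K27ac, equal sizes gave 51.9% (SNA), 53.2% (DCA) and 44.0% (Lam), and the 3 loci with no other gene, an alternative chosen after seeing the data, gave 68.2% and 31.4% for SNA and DCA. In ATAC, −log10 q of 5 gave 64.6% (SNA) and 57.0% (DCA), and 1.3 gave 54.2% (DCA). In H3K27me3 the 10 kb window gave 22.2% (SNA) and 11.1% (DCA). The H3K9ac promoter count was 17 with −log10 q of 5. Regions in all 4 lists were, in H3K9ac, 6 (−log10 q of 5), 20 (10 kb), 76 (100 kb) and 18 (0.5 of the region covered), in H3K27ac 20, 20 (10 kb) and 17 (0.5 covered), in ATAC 28, 18 (10 kb) and 112 (100 kb), and in H3K27me3 0 under −log10 q of 5 and 1.3, equal sizes, 10 kb and 0.5 covered. The cause was not tested. H3K27me3 shares under −log10 q of 5 and 1.3 gave no value, since no peak was left. The recovered reads per position limit single peaks, since an H3K27ac promoter peak rested on 14 to 196 reads.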
